A study of Mus musculus with 8 samples.

Results

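The 10 genes described here are Foxp3, the transcription factor that defines regulatory T cells (Treg), and 9 genes whose proteins bind Foxp3 or modify it: Foxp1, Runx1, Cbfb, Satb1, Kat5, Hdac7, Sirt1, Stub1 and Usp7. They were taken by gene symbol, for what is known of the proteins. Both these genes and the lists of other genes below were chosen with earlier results of these data known. All 10 were among the 23361 gene symbols of the expression table, and all 10 passed the filter on low values that left 10467 genes for testing. RNA was sequenced from induced Treg (iTreg) of wild-type mice, in 4 libraries of Nrp-1+ iTreg and 4 libraries of Nrp-1- iTreg. In both groups, naive CD4+ T cells (CD44 low, CD62L high) of Foxp3-RFP reporter mice, in which a red fluorescent protein reports Foxp3 expression, had been cultured with microbeads against CD3 and CD28, IL-2 at 50 U/ml and TGF-β at 2 ng/ml. The culture lasted 3 days according to one label, and another label gives day 5. Viable CD4+ Foxp3-RFP+ cells were then sorted by whether they carried Nrp-1, the surface receptor neuropilin-1, so every library came from cells already selected for Foxp3 expression. The mice were 7 to 8 weeks old. The libraries of a group are labelled as biological replicates 1 to 4, but no label says whether they came from separate cultures or animals, so the p values measure the spread between these libraries, which may be technical in part.

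Foxp3 binds DNA through a forkhead domain and works within large protein complexes. Runx1 binds DNA as a heterodimer with Cbfb, the non-DNA-binding core-binding factor beta subunit, and the pair acts both on the Foxp3 gene and together with the Foxp3 protein. Foxp1 is a forkhead relative that can pair with Foxp3, and Satb1 is a chromatin organizer that Foxp3 represses in Treg. Kat5 (Tip60) acetylates the Foxp3 protein, Hdac7 joins it in a complex with Kat5, and Sirt1 removes acetyl groups. Stub1, a ubiquitin ligase that works with heat shock proteins, marks Foxp3 for degradation, whereas Usp7 removes ubiquitin from it. RNA was measured here, and neither the amount nor the modification of the proteins.

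The promoters of 3 of these genes are shown because the genes differed between the groups and because Runx1 and Cbfb belong to the factor that recognizes one of the motifs searched. Each window runs from 250 bases before to 50 bases after an annotated start in RefSeq (GRCm38.p6), is 300 bases long and is written 5′ to 3′ on the strand of the gene. Capitals mark the RUNX letters TGTGGT or their reverse complement ACCACA. The windows are the Foxp3 start at chrX:7579426-7579725 (plus strand), the distal Runx1 start at chr16:92826025-92826324 (minus strand) and the Cbfb start at chr8:105170424-105170723 (plus strand).
Foxp3: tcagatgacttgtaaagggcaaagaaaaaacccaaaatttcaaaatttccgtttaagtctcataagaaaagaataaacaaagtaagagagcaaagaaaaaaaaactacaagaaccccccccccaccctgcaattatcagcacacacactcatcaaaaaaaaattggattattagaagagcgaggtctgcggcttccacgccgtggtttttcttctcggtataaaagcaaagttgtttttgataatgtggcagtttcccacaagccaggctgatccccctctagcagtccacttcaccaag
Runx1: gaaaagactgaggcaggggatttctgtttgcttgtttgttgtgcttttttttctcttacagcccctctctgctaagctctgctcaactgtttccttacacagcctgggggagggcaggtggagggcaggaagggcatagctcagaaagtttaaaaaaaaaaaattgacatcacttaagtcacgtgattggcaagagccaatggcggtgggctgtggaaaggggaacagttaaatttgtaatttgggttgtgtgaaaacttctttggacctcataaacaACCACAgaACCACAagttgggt
Cbfb: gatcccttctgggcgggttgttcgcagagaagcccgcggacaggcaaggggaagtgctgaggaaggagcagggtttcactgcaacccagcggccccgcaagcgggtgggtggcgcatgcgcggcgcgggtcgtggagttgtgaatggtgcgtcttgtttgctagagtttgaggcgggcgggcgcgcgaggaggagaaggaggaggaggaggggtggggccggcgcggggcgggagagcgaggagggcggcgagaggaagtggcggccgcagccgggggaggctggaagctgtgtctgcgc
All 10 genes had at least 1 window in RefSeq, 22 windows in all. RUNX letters were found on either strand in 2 of the 22 windows, the distal Runx1 window, with 2 matches, and the Sirt1 window at chr10:63338986-63339285 (minus strand), with 1 match. Of all 32851 promoter windows of the same length, 16.8% held these letters. The forkhead letters TGTTTAC, or GTAAACA on the other strand, were found in 1 of the 22 windows, which belongs to Hdac7, and in 3.65% of all windows. No RUNX match overlapped a forkhead match. The Foxp3 and Cbfb windows held none of the letters searched.

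Of the 10 genes, 4 were higher in Nrp-1+ iTreg (Cbfb, Stub1, Runx1 and Foxp3), 3 were lower (Satb1, Usp7 and Foxp1), and 3 did not pass the test (Kat5, Hdac7 and Sirt1). The changes were small. The largest, that of Cbfb, was 27.0%, and none of the 10 reached 2-fold. Differences were tested by limma on log2(FPKM + 1), where FPKM stands for fragments scaled by transcript length and by the number of mapped fragments, and a gene is said to be higher or lower where the p value adjusted by the Benjamini-Hochberg method over all tested genes was under 0.05. The background was high, because 40.9% of all tested genes passed, 20.9% as higher and 20.0% as lower in Nrp-1+ iTreg. The 4 libraries of one group all lay above the 4 of the other for 6 of the 10 genes (3 higher and 3 lower), and for 39.5% of all tested genes. The median log2 fold change of the 10 genes was 0.03, against -0.02 over all tested genes. Without its sign the median was 0.13, against 0.12 over all tested genes.

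**Figure D1:**
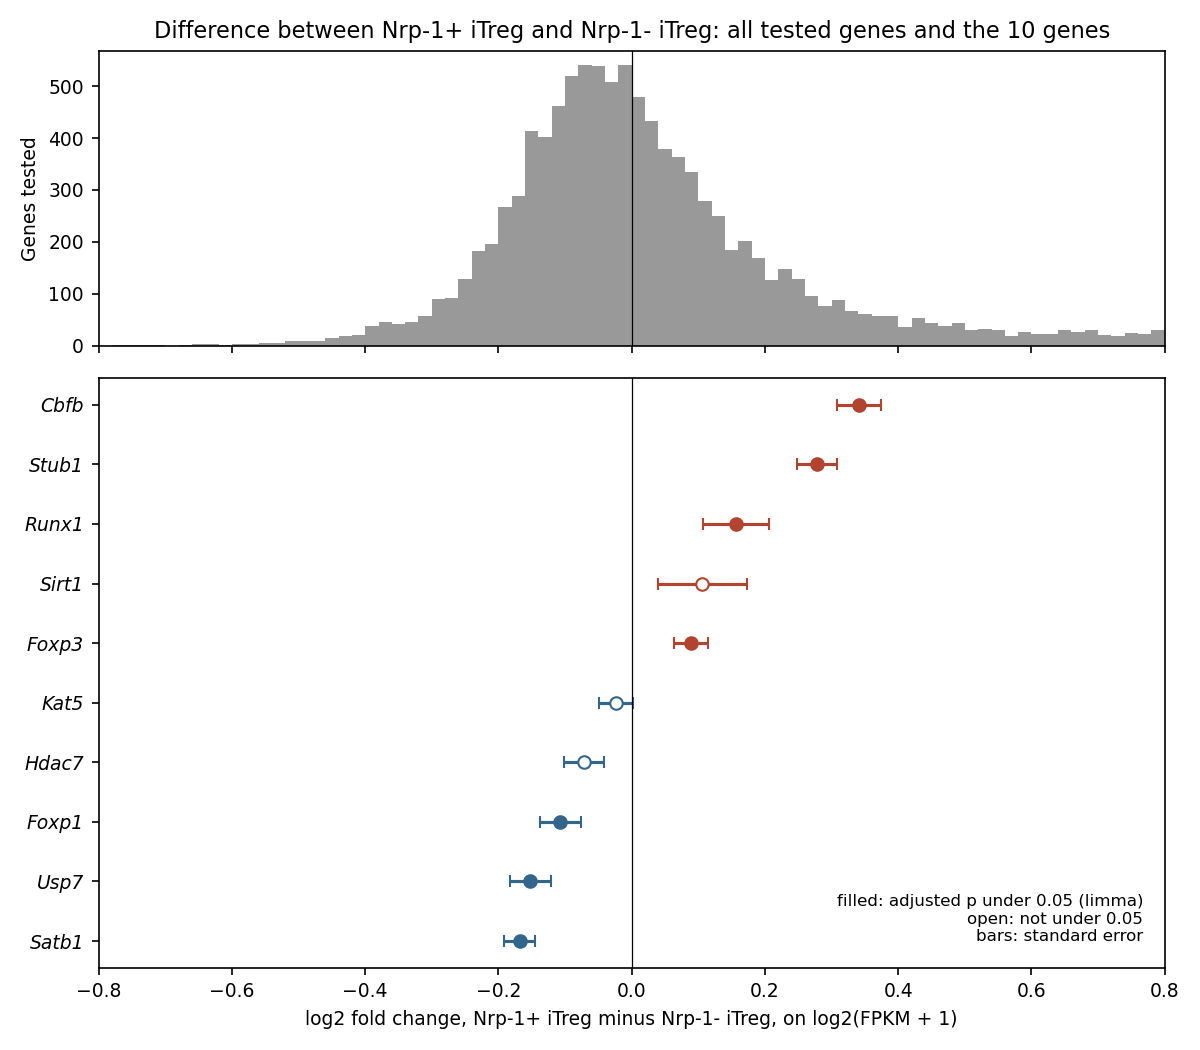
The upper panel counts all tested genes by log2 fold change, Nrp-1+ against Nrp-1- iTreg (383 genes beyond 0.8 on either side are not drawn), and the lower panel gives the log2 fold change of each of the 10 genes with its standard error, filled where the adjusted p by limma was under 0.05. Cbfb (0.34) and Stub1 (0.28) lie to the right and Satb1 (-0.17) furthest to the left, all well inside the spread of the tested genes.

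The sort and the cells were checked on the same libraries. Nrp1, the gene of the sorted receptor, averaged 21.47 ± 0.709 FPKM over the Nrp-1+ iTreg libraries and 4.946 ± 0.262 FPKM over the Nrp-1- iTreg libraries (SD, n = 4 each). The summed FPKM of 8 T cell and Treg markers (Cd3d, Cd3e, Cd3g, Cd4, Cd5, Il2ra, Ctla4 and Tnfrsf18) was 2423 to 2483 in Nrp-1+ iTreg and 2434 to 2563 in Nrp-1- iTreg. Single markers did differ, since Il2ra (16.5%) and Cd5 (8.07%) were higher in Nrp-1+ iTreg, and Cd3d (-12.0%), Cd3g (-7.36%) and Ctla4 (-10.3%) were lower. Of the B cell markers, Ms4a1 and Pax5 were listed at 0 in all 8 libraries, Cd79a reached at most 0.867 FPKM, and Cd79b averaged 5.091 FPKM in Nrp-1+ iTreg against 4.583 FPKM. The neutrophil markers S100a8 and S100a9 were listed at 0 throughout, and the summed markers of NK cells reached at most 1.073 FPKM. Relative sequencing depth, read from the step between low FPKM values, was 0.994 to 1.22 in the Nrp-1+ iTreg libraries and 0.810 to 1.24 in the Nrp-1- iTreg libraries, with replicate 1 of Nrp-1+ iTreg set to 1. All 25 genes of a cell cycle list were higher in Nrp-1+ iTreg, with summed levels of 2423 to 2482 FPKM against 1318 to 1328 FPKM and a median log2 fold change of 0.87. The largest increases among them were those of Mcm5, a subunit of the replicative helicase (log2 fold change 1.00), and Top2a, a topoisomerase (1.00). These levels moved with every difference given below, and their part in those differences was not tested. In bulk RNA, fewer cells of a type and less RNA per cell cannot be told apart.

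Foxp3 transcripts were abundant in both groups and 6.44% higher in Nrp-1+ iTreg. The Nrp-1+ iTreg libraries held 114.7, 116.4, 111.5 and 120.5 FPKM, and the Nrp-1- iTreg libraries 109.9, 108.7, 107.1 and 109.4 FPKM. All 4 Nrp-1+ iTreg libraries lay above all 4 Nrp-1- iTreg libraries, with 1.61 FPKM between the nearest. The means were 115.8 ± 3.72 FPKM and 108.8 ± 1.2 FPKM (SD, n = 4 each), and the difference of 7.01 FPKM had p = 0.0286 by an exact two-sided permutation test, the smallest p that 4 libraries against 4 allow. The log2 fold change was 0.09 ± 0.03 (standard error, SE; limma, adjusted p = 0.0245), and 60.2% of all tested genes changed by more. An approximate 6300 to 9800 fragments per library stood behind these values. Counting alone would then give a coefficient of variation near 1.1%, where the libraries showed 3.21% in Nrp-1+ iTreg and 1.10% in Nrp-1- iTreg. The call was close to the threshold. The adjusted p was 0.0992 with quantile normalization, 0.0559 without replicate 2 of Nrp-1+ iTreg, and 0.0525 and 0.0623 without replicates 2 and 3 of Nrp-1- iTreg. Foxp3 lies at chrX:7579676-7595243, where 18.6% of its exon bases are shared with Flicr, an RNA annotated on the same strand, 12.9% with Ccdc22, 8.15% with Gm36995 and 5.81% with Ppp1r3f, the last 3 on the opposite strand. Flicr and Gm36995 have no row of their own among the genes analysed, so reads from Flicr could not be told apart from those of Foxp3 by strand. The sources used here do not say whether the counting used strand, and they name different library kits, so reads from such stretches cannot be assigned with certainty. Ccdc22 averaged 27.65 ± 0.683 FPKM over the Nrp-1+ iTreg libraries and 28.29 ± 1.16 FPKM over the Nrp-1- iTreg libraries (SD, n = 4 each) (adjusted p = 0.481 by limma).

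**Figure D2:**
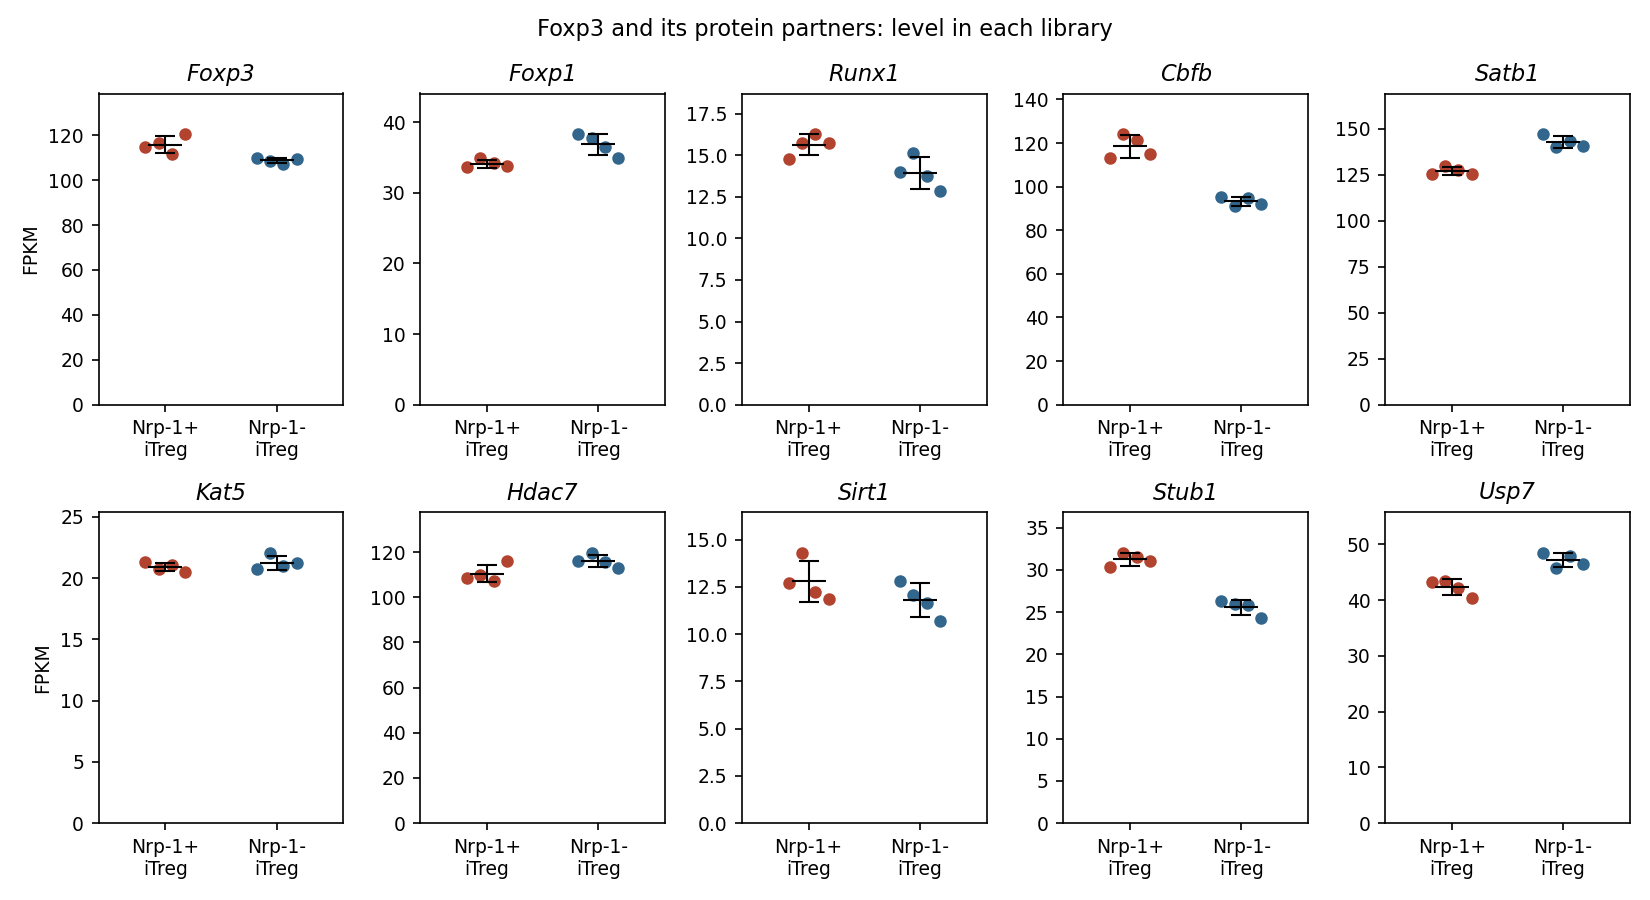
Each panel gives the FPKM of 1 gene in the 4 Nrp-1+ iTreg libraries (red) and the 4 Nrp-1- iTreg libraries (blue), with the mean and SD in black and the axis starting at 0. Cbfb, Stub1, Satb1 and Usp7 show a gap between the groups, Foxp3 and Foxp1 a narrow one, and the other panels overlap.

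The pattern over the 8 libraries most like that of Foxp3 was shown by Exoc1 (Pearson r of log2 values 0.98, with means of 11.21 FPKM in Nrp-1+ iTreg and 10.52 FPKM in the other group), which encodes a subunit of the exocyst. C130083M11Rik (r = 0.98, 1.368 and 0.698 FPKM) and Slc10a7 (r = 0.98, 10.75 and 9.27 FPKM) followed. C130083M11Rik passed the filter on low values only through the group where it was high. These correlations describe 8 libraries that share the difference between the groups and the normalization. Among the 9 partners, r with Foxp3 ran from -0.85 for Usp7 to 0.79 for Stub1.

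The Runx1 and Cbfb subunits were both higher in Nrp-1+ iTreg, and Cbfb by more. Cbfb (chr8:105170674-105217989) was at 113.3, 124.1, 121.6 and 114.8 FPKM in Nrp-1+ iTreg and at 95.18, 91.29, 94.71 and 91.81 FPKM in Nrp-1- iTreg. The groups were 18.2 FPKM apart at their nearest. The means of 118.4 ± 5.19 and 93.25 ± 1.98 FPKM (SD, n = 4) differed by a log2 fold change of 0.34 ± 0.03 (SE; limma, adjusted p = 0.000105), and 13.3% of all tested genes changed by more. Runx1 (chr16:92601466-92826074), whose distal window holds the RUNX letters printed above, was at 14.78, 15.75, 16.27 and 15.72 FPKM in Nrp-1+ iTreg. In Nrp-1- iTreg it was at 14.01, 15.13, 13.73 and 12.86 FPKM. The groups overlapped, because replicate 2 of Nrp-1- iTreg lay above replicate 1 of Nrp-1+ iTreg. The increase of 12.2% had a log2 fold change of 0.16 ± 0.05 (SE; limma, adjusted p = 0.0339). This call was not firm. It was lost without the filter on low values (adjusted p = 0.0552), and it was lost in 6 of the 8 fits with 1 library left out (replicate 2, 3 or 4 of Nrp-1+ iTreg, or replicate 1, 3 or 4 of Nrp-1- iTreg), where the adjusted p lay between 0.0656 and 0.0874.

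Runx3 moved the other way from Runx1. This gene, which also pairs with Cbfb and is the main Runx gene of these cells by level, averaged 36.33 FPKM in Nrp-1+ iTreg against 40.15 FPKM, a change of -9.53% (log2 fold change -0.14, adjusted p = 0.0064 by limma). Runx2, best known from bone, averaged 0.568 and 0.527 FPKM and was below the filter. The 3 genes summed to 52.52 ± 0.798 FPKM over the Nrp-1+ iTreg libraries and to 54.61 ± 1.96 FPKM over the Nrp-1- iTreg libraries (SD, n = 4 each). Runx1 made up 28.6% to 31.3% of that sum in Nrp-1+ iTreg and 24.8% to 27.3% in Nrp-1- iTreg, with no overlap between the groups.

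Foxp1 and Satb1 were both lower in Nrp-1+ iTreg. Satb1 (chr17:51736187-51833290) was at 125.3, 129.8, 127.5 and 125.4 FPKM in Nrp-1+ iTreg against 147.2, 140.3, 143.3 and 140.7 FPKM in Nrp-1- iTreg. All 4 Nrp-1+ iTreg libraries were lower, with 10.4 FPKM between the nearest, and the change of -11.1% had a log2 fold change of -0.17 ± 0.02 (SE; limma, adjusted p = 0.000648). Foxp1 (chr6:98925342-99522746) was at 33.67, 34.89, 34.23 and 33.75 FPKM against 38.31, 37.73, 36.46 and 34.98 FPKM. The groups were apart by only 0.0906 FPKM, since replicate 4 of Nrp-1- iTreg lay close to replicate 2 of Nrp-1+ iTreg. The change was -7.42%, with a log2 fold change of -0.11 ± 0.03 (SE; limma, adjusted p = 0.0238). It did not pass in 5 of the 8 fits with 1 library left out, where the adjusted p was 0.059, 0.0508 and 0.0542 without replicates 1, 3 and 4 of Nrp-1+ iTreg and 0.054 and 0.0615 without replicates 1 and 2 of Nrp-1- iTreg.

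Among the forkhead relatives, Foxp4 averaged 28.33 FPKM in Nrp-1+ iTreg against 26.06 FPKM (adjusted p = 0.0686 by limma). Foxp2, a gene known from brain and lung, stayed at or under 0.0245 FPKM in all 8 libraries. Foxp3 held 64.6% to 65.6% of the summed level of the 4 Foxp genes in Nrp-1+ iTreg and 62.2% to 64.6% in Nrp-1- iTreg.

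The 3 acetylation enzymes among the 10 genes, Kat5, Hdac7 and Sirt1, did not pass the test. Kat5 (chr19:5603014-5611556) was at 21.29, 20.73, 21.06 and 20.53 FPKM in Nrp-1+ iTreg and at 20.75, 22.09, 20.99 and 21.20 FPKM in Nrp-1- iTreg. The ranges of the groups overlapped (log2 fold change -0.02 ± 0.03 SE; limma, adjusted p = 0.502). Hdac7 (chr15:97792661-97844502) was at 108.7, 109.9, 107.2 and 116.0 FPKM against 116.1, 119.8, 115.6 and 112.8 FPKM. Only replicate 4 of Nrp-1+ iTreg reached into the range of the Nrp-1- iTreg libraries. The log2 fold change was -0.07 (adjusted p = 0.091 by limma), and the adjusted p was 0.0192 without that library and 0.0259 once GC content and transcript length were corrected for. Sirt1 (chr10:63319005-63339035) was at 12.72, 14.31, 12.24 and 11.87 FPKM against 12.81, 12.06, 11.66 and 10.69 FPKM. It varied most among the replicates of the 10 genes, with coefficients of variation of 8.40% and 7.46%, where counting alone would give about 3.1%. Its log2 fold change was 0.11 ± 0.07 (SE; limma, adjusted p = 0.241).

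Kat5 shares 12.1% of its exon bases with Rnaseh2c, a subunit of ribonuclease H2 that lies on the opposite strand. Rnaseh2c averaged 64.71 ± 5.65 FPKM over the Nrp-1+ iTreg libraries and 46.17 ± 2.78 FPKM over the Nrp-1- iTreg libraries (SD, n = 4 each) (log2 fold change 0.48, adjusted p = 0.000903 by limma). The part of such reads in the Kat5 value was not tested.

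Relatives of the acetylation enzymes differed among themselves. Of 8 other lysine acetyltransferases tested, 1 was higher, 3 were lower and 4 did not pass. Among all tested genes, 20.9% were higher and 20.0% lower. Kat7 was 7.21% higher in Nrp-1+ iTreg (adjusted p = 0.0109 by limma), while Kat8, which acetylates histone H4, fell by 16.5% (adjusted p = 0.00261), Kat6b fell by 15.5% (adjusted p = 0.0104) and Ep300, which also acetylates Foxp3, fell by 9.29% (adjusted p = 0.00649). The class I deacetylases Hdac1 (log2 fold change 0.14), Hdac2 (0.10) and Hdac3 (0.11) were higher in Nrp-1+ iTreg, whereas Hdac8 (-0.25) was lower. With quantile normalization Hdac1 (adjusted p = 0.129 by limma), Hdac2 (0.0977) and Hdac3 (0.134) no longer passed. Hdac6, a largely cytoplasmic deacetylase, was 35.5% higher (7.449 against 5.498 FPKM, adjusted p = 0.000213 by limma). Within class IIa, Hdac7 held 74.5% to 75.3% of the summed level in Nrp-1+ iTreg and 75.3% to 77.5% in Nrp-1- iTreg, Hdac4 and Hdac5 did not pass, and Hdac9 was at or under 0.144 FPKM. Of the sirtuins, Sirt2 (-15.1%) and the mitochondrial Sirt5 (-19.1%) were lower in Nrp-1+ iTreg. Sirt3 (adjusted p = 0.612 by limma), Sirt4 (0.839), Sirt6 (0.346) and Sirt7 (0.579) did not pass. Sirt1 held 8.45% to 10.8% of the summed sirtuin level in Nrp-1+ iTreg against 7.24% to 8.88%.

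The ubiquitin ligase and the deubiquitinase moved in opposite directions. Stub1 (chr17:25830634-25832919) was at 30.34, 32.05, 31.53 and 31.06 FPKM in Nrp-1+ iTreg and at 26.27, 26.01, 25.83 and 24.30 FPKM in Nrp-1- iTreg. The groups were 4.08 FPKM apart, and the means of 31.25 ± 0.725 and 25.60 ± 0.887 FPKM (SD, n = 4) differed by 22.1% (log2 fold change 0.28 ± 0.03 SE; limma, adjusted p = 0.000189). Usp7 (chr16:8688722-8757067) was at 43.32, 43.46, 42.23 and 40.35 FPKM in Nrp-1+ iTreg and at 48.53, 45.70, 47.92 and 46.51 FPKM in Nrp-1- iTreg. Here every Nrp-1+ iTreg library was lower, with 2.24 FPKM between the nearest. The change was -10.2% (log2 fold change -0.15 ± 0.03 SE; limma, adjusted p = 0.00512). The calls of Stub1, Usp7, Cbfb and Satb1 held in all 20 alternative fits.

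Stub1 is the gene of the 10 with the largest exon overlap. Jmjd8, on the opposite strand, covers 42.3% of its exon bases in the GENCODE M21 annotation, and 35.4% when only protein-coding transcripts are taken. Jmjd8 averaged 6.391 ± 0.849 FPKM over the Nrp-1+ iTreg libraries and 6.500 ± 0.285 FPKM over the Nrp-1- iTreg libraries (SD, n = 4 each), well below Stub1 and with no difference that passed the test (adjusted p = 0.804 by limma). With strand use in the counting not given, the Stub1 level is uncertain to that extent.

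Heat shock proteins work with Stub1. Of the 3 heat shock genes among the Foxp3-binding proteins, which were picked out after their values were seen, Hspa8 was higher in Nrp-1+ iTreg by 12.2% (adjusted p = 0.000682 by limma) and Hsp90aa1 by 26.7% (adjusted p = 0.000129), where 20.9% of all tested genes were higher, and Hspa1a was at or under 0.189 FPKM. Among other ubiquitin ligases of T cells, Cblb, a brake on T cell activation, fell by 21.7% in Nrp-1+ iTreg (adjusted p = 4.12e-05 by limma), Dtx1 fell by 18.8% (adjusted p = 0.00629), and Rnf31, a subunit of the linear ubiquitin ligase, fell by 10.3% (adjusted p = 0.0103). A decrease passed the test for 20.0% of all tested genes. The ligase Traf6 (adjusted p = 0.417 by limma) and the deubiquitinases Usp21 (0.227) and Usp22 (0.231) did not pass, and the deubiquitinase Usp44 was at or under 0.0338 FPKM.

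Because FPKM is scaled by transcript length, levels of different genes could be set against each other within a library, as a description without a test. There were 1.43, 1.36, 1.34 and 1.30 FPKM of Usp7 per FPKM of Stub1 in the Nrp-1+ iTreg libraries, and 1.85, 1.76, 1.86 and 1.91 in the Nrp-1- iTreg libraries. Usp7 thus stood above Stub1 in all 8 libraries, but by less in Nrp-1+ iTreg, with a difference in mean log2 ratio of -0.44 and no overlap. With each library left out in turn, an alternative added after the data were seen, the difference in log2 ratio lay between -0.47 and -0.42. The ratio of Runx1 to Cbfb averaged 0.132 ± 0.00433 over the Nrp-1+ iTreg libraries and 0.149 ± 0.0113 over the Nrp-1- iTreg libraries (SD, n = 4 each), and the highest of the former (0.137) lay below the lowest of the latter (0.140). The ratio of Foxp1 to Foxp3 was 0.280 to 0.307 in Nrp-1+ iTreg and 0.320 to 0.349 in Nrp-1- iTreg, again apart. The ratio of Kat5 to Hdac7 (0.177 to 0.196 against 0.179 to 0.188) and that of Kat5 to Sirt1 (1.45 to 1.73 against 1.62 to 1.98) overlapped between the groups.

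**Figure D3:**
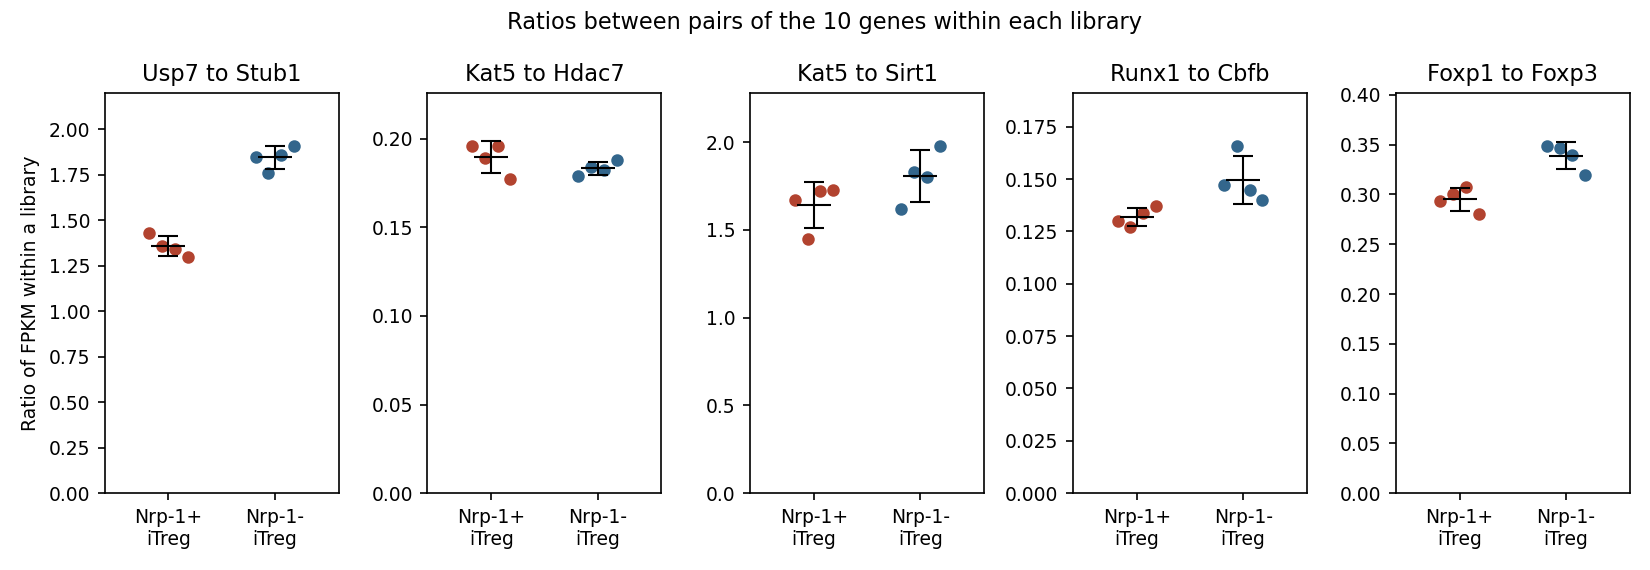
Each panel gives the ratio of the FPKM of 2 genes within each of the 4 Nrp-1+ iTreg (red) and 4 Nrp-1- iTreg (blue) libraries, with the mean and SD in black and the axis starting at 0. The ratio of Usp7 to Stub1 is separated most (1.30 to 1.43 against 1.76 to 1.91), and both ratios of Kat5 overlap.

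By level over all 8 libraries, Satb1 stood first (mean 134.9 FPKM) and did not overlap with any other of the 10 genes. Hdac7 (113.3 FPKM), Foxp3 (112.3 FPKM) and Cbfb (105.8 FPKM) followed and overlapped with their neighbours over the 8 libraries, and likewise within Nrp-1+ iTreg. The order of these 3 differed between the groups. The means in Nrp-1+ iTreg were 118.4 FPKM for Cbfb, 115.8 FPKM for Foxp3 and 110.4 FPKM for Hdac7, with overlap, whereas in Nrp-1- iTreg the 3 were apart, in the order Hdac7, Foxp3, Cbfb. Usp7 (44.75 FPKM), Foxp1 (35.50 FPKM), Stub1 (28.42 FPKM) and Kat5 (21.08 FPKM) came next, each apart from its neighbours. Runx1 (14.78 FPKM) and Sirt1 (12.29 FPKM) were lowest. Their ranges overlapped over all libraries, but Runx1 was above Sirt1 in 8 of 8 libraries. Among all tested genes, 6.66% had a higher mean than Satb1, 8.05% a higher mean than Foxp3, and 55.2% a higher mean than Sirt1.

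Of 36 other genes whose proteins are reported to bind or modify Foxp3, 33 were tested, 11 were higher and 7 lower in Nrp-1+ iTreg, or 54.5% against 40.9% of all tested genes. The largest increases were those of Ezh2, the histone H3 methyltransferase of the Polycomb complex (60.2%, log2 fold change 0.67, adjusted p = 5.9e-07 by limma), and Cdk2, a cell cycle kinase that phosphorylates Foxp3 (44.6%, log2 fold change 0.51, adjusted p = 1.59e-05). The largest decreases were those of the kinase Pim2 (-25.7%, log2 fold change -0.42, adjusted p = 2.17e-05 by limma) and Ikzf3, which encodes Aiolos (-17.7%, log2 fold change -0.28, adjusted p = 0.000526). The median log2 fold change of the 33 genes was 0.01. Of 36 paralogs and genes of the same roles as the partners, 30 were tested, 5 were higher and 10 lower (50.0% against 40.9%), with a median of -0.05. With quantile normalization 6 of the other binding genes were higher and 5 lower, and of the paralogs and genes of the same roles 2 were higher and 11 lower.

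Of 27 tested genes that act on Foxp3 transcription, 3 were higher and 6 lower in Nrp-1+ iTreg, which is 33.3% against 40.9% of all tested genes (median log2 fold change -0.04), and 3 were higher and 2 lower without replicate 1 of Nrp-1+ iTreg. The largest increases were those of Uhrf1, which recruits Dnmt1 to DNA, by 99.0% (log2 fold change 0.97, adjusted p = 3.19e-07 by limma) and of Dnmt1, the maintenance DNA methyltransferase, by 70.1% (log2 fold change 0.75, adjusted p = 2.54e-07). Tet3, which oxidizes methylated cytosine, fell by 15.5% (log2 fold change -0.22, adjusted p = 0.00516 by limma) and Tgif1, a repressor of TGF-β signalling, fell by 14.1% (log2 fold change -0.21, adjusted p = 0.0406). The TGF-β mediators Smad2 (adjusted p = 0.725), Smad3 (0.0876) and Smad4 (0.132) did not pass the test by limma.

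Of 19 tested genes known to be higher with Foxp3 in Treg, 8 were higher and 2 lower in Nrp-1+ iTreg, or 52.6% against 40.9% of all tested genes (20.9% higher and 20.0% lower). On the log2(FPKM + 1) scale the largest increases were those of Ebi3 and Penk. Ebi3, a subunit of the cytokine IL-35, rose by 86.3% to 9.303 FPKM (log2 fold change 0.78, adjusted p = 0.00117 by limma), and Penk, which encodes proenkephalin, by 78.2% to 3.882 FPKM (log2 fold change 0.62, adjusted p = 0.00186). The genes that fell were Ctla4, the inhibitory receptor (-10.3%, log2 fold change -0.16, adjusted p = 0.000938 by limma), and Entpd1, the ectonucleotidase CD39 (-8.82%, log2 fold change -0.12, adjusted p = 0.0165). Fgl2, added after its values were seen, is among the 8 but averaged 1.51 FPKM in Nrp-1+ iTreg and 0.665 FPKM in the other group, so it passed the filter on low values only through the group where it was high. The median log2 fold change of the list was 0.08. Of 14 genes known to be lower with Foxp3, 9 were tested. Of these, 3 were higher and 4 lower, or 77.8% against the same 40.9%. The cytokine genes Il2, Il4, Ifng, Il17a and Il21 were not tested and stayed at or under 0.4484 FPKM. Igfbp4 rose by 24.6% (log2 fold change 0.32, adjusted p = 0.000212 by limma) and Cd40lg, the CD40 ligand, by 14.4% (log2 fold change 0.19, adjusted p = 0.00278). Actn1 changed by -24.8% (log2 fold change -0.41, adjusted p = 3.71e-06 by limma) and the IL-7 receptor gene Il7r by -22.2% (log2 fold change -0.36, adjusted p = 6.84e-05), and the median was -0.05.

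**Figure D4:**
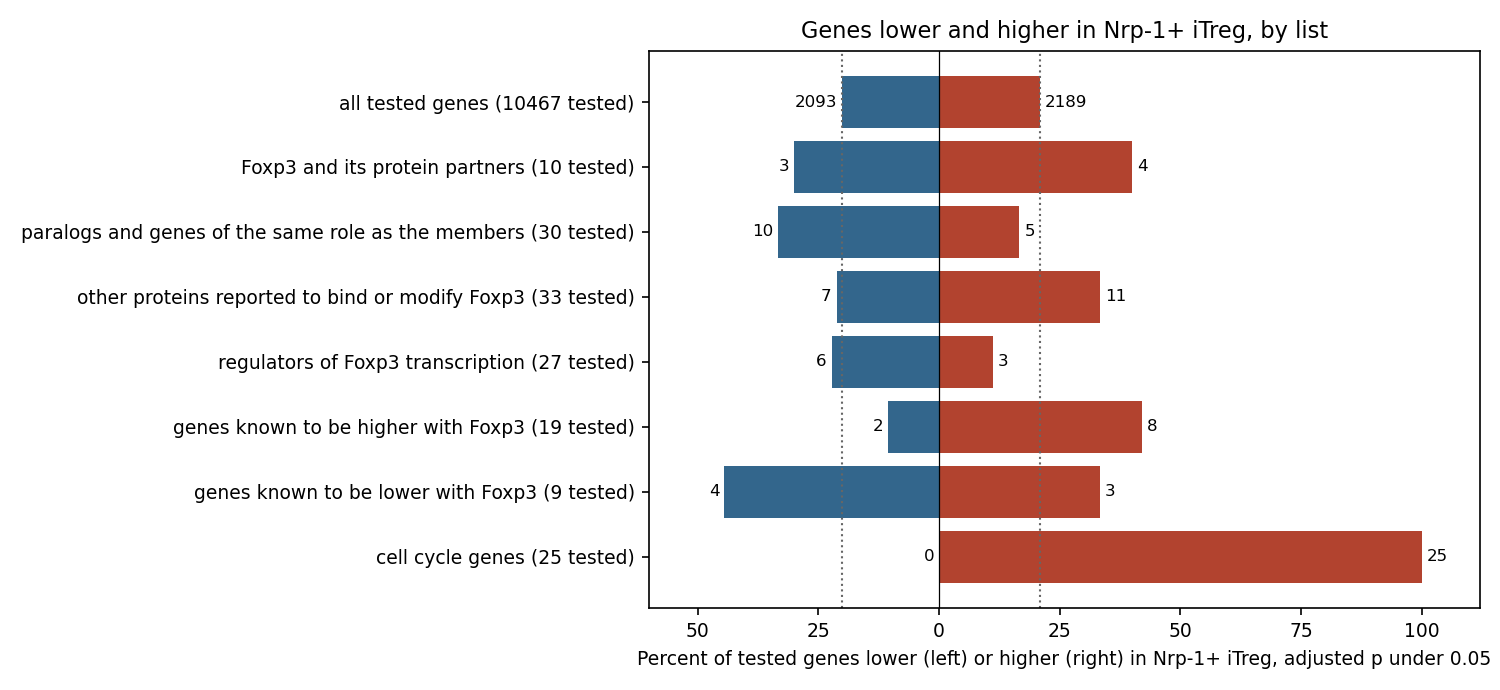
Bars give the percent of tested genes of each list that were lower (left, blue) or higher (right, red) in Nrp-1+ iTreg by limma, with the counts at their ends and dotted lines at the shares of all tested genes (20.0% and 20.9%). The 10 genes (4 higher, 3 lower) and the Foxp3-related lists hold calls on both sides, and the cell cycle list holds 25 of 25 on the right.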

How the data were processed

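RNA-seq of 8 libraries, 4 of Nrp-1+ iTreg and 4 of Nrp-1- iTreg, was analysed, with groups and replicate numbers taken from the sample labels. The reads were processed by the authors with the CLC Genomics Workbench, and they deposited FPKM values calculated with Cufflinks, 1 per gene symbol and library. The submitters' processing notes name GRCm38 and mm10. The strand setting of the counting is not given in the sources used here. Count models were not applied to FPKM. Depth came from the step between low FPKM values, and fragment numbers are approximate. Pairs of libraries within a group varied 1.55 to 2.78 times as much as counting alone gives, which speaks only to whether a library was deposited more than once, since library preparation also adds variance.

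For the 10467 genes (of 23361) that averaged 1 FPKM or more, log2(FPKM + 1) was fitted by limma 3.58.1 under R 4.3.3, with an intensity trend, and p values were adjusted by the Benjamini-Hochberg method. On this scale the change of low genes is understated. The fit was checked on simulated data. The exact permutation test and the ratios used Python 3.11.15, numpy 2.4.6, scipy 1.17.1 and pandas 2.3.3, and the plots matplotlib 3.10.9. The 10 genes, the lists and the tests were chosen with earlier results of these data known. Genes named were all 10, the 2 largest increases and the 2 largest decreases on the log2(FPKM + 1) scale among the genes that passed in each list, relatives of the 10 genes, the 3 genes most like Foxp3, and Nrp1. Genes that share exon bases with the 10, cell type markers, Smad2, Smad3, Smad4, Fgl2 and the heat shock genes are named outside this rule, after their values were seen. Alternatives were pseudocounts of 0.1 and 0.5, no filter, a filter at 5, size factors, quantile normalization, a correction for GC content and length, a replicate block, leaving out short RNA genes, no trend, array weights, and each library left out. Loci and promoters are from RefSeq (GRCm38.p6) and exon overlaps from GENCODE M21. The older symbols of 2 list genes were matched through RefSeq. nTreg libraries were not analysed here.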

Additional observations from a re-analysis of the deposited data

Results flagged for a closer look

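In 38 groups of 4 library values (the 10 genes, Nrp1, Jmjd8, Rnaseh2c, the ratios and the relative depth), 2 held a library far from the others by Dixon's ratio of gap to range at the 95% level, where chance alone gives about 5% of groups, or 1.9. In Nrp-1+ iTreg, replicate 2 held 56.32 FPKM of Rnaseh2c and the other 3 libraries held 66.67 to 68.57 FPKM. Replicate 3 of the same group had a relative depth of 1.216, and its fellow libraries 0.994 to 1.005. None of the values of the 10 genes themselves stood out in this way.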

How the results depend on the processing

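The log2 fold changes of the 10 genes kept their sign under all 20 alternatives. Among all tested genes, 1768 were higher and 2023 lower with quantile normalization and 1742 higher and 1910 lower with the filter at 5, against 2189 and 2093. The filter at 5 leaves fewer genes to test, so its counts have another total. The log2 fold change of Foxp3 was 0.0798 with quantile normalization, where it no longer passed, and 0.0697 to 0.1065 with each library left out, where it did not pass in 3 of the 8 fits. The difference in mean FPKM of Foxp3 was 5.45 to 8.43 FPKM with each library left out, at an exact permutation p of 0.0571, the smallest that 3 libraries against 4 allow. Between 5 and 8 of the 10 genes passed, and between 3606 and 4598 of all tested genes. The number of tested genes changes with the filter and without short RNA genes, so these counts are not shares of one total. With the replicate number as a block, 6 of the 10 genes passed (3 higher, 3 lower) and 3606 genes in all (1931 higher, 1675 lower). Foxp3 kept its log2 fold change of 0.09 (adjusted p = 0.0445 by limma), Runx1 had an adjusted p of 0.0604, and 0.0563 with the GC and length correction added, and 5 regulators of Foxp3 transcription passed (3 higher, 2 lower) in place of 9 (3 higher, 6 lower). Same-numbered libraries did not deviate together (correlations of their deviations from the group means from -0.54 to 0.01, and from -0.11 to -0.04 without short RNA genes, whose share of all FPKM ran from 1.77% to 43.9% among libraries), so the number is not taken as a pairing. Effects on lists and ratios were examined after the data were seen. Precision differed among the genes: Satb1 passed at a change of -11.1%, whereas Sirt1, with a coefficient of variation of 8.40% among the Nrp-1+ iTreg libraries, did not at 8.29%.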

Other observations

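Of the markers of other cell types, only Hba-a1, Itgam, Cd8b1 and Cd79b passed the filter on low values and were tested. The first 3 differed between the groups by limma and Cd79b did not (adjusted p = 0.282), where 40.9% of all tested genes differed. Hba-a1, an alpha globin gene of red cells with a near-identical copy, averaged 6.103 ± 0.958 FPKM over the Nrp-1+ iTreg libraries (SD, n = 4) against 2.516 FPKM (log2 fold change 1.02, adjusted p = 0.00051 by limma). Itgam, an integrin of myeloid cells, averaged 6.700 ± 0.252 FPKM (SD, n = 4) against 5.564 FPKM (adjusted p = 0.00136 by limma), while the myeloid genes Lyz2, Cd14, Csf1r and Emr1 (the older symbol of Adgre1) stayed at or under 0.352 FPKM in every library and Cd68 averaged 0.642 and 0.898 FPKM. Cd8b1 averaged 7.858 ± 0.742 FPKM (SD, n = 4) against 10.0 FPKM (adjusted p = 0.0119 by limma), and Cd8a, which pairs with it on CD8 T cells, at or under 0.111 FPKM.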
